A study of Mus musculus with 8 samples.

Results

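Interleukins are secreted signals between leukocytes, stromal cells and epithelium, and their receptors decide which cells can respond. The genes described here were chosen by name alone: all protein-coding rows of the count table whose symbol begins with Il and a digit, except Il6, Il11, Il6ra and Il6st. Of 54532 rows in the table, 80 were members, carrying 78 symbols because Il11ra2 has 3 rows. The members were 42 receptors, receptor accessory chains and binding proteins and 38 ligands and others. Reads were found for 73 members, and 51 passed edgeR's filter on low counts and were tested.

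The 8 libraries came from orthotopic pancreatic tumours grown from KPC cells, a mouse line of pancreatic ductal adenocarcinoma (PDAC), implanted into C57BL/6 mice. In the Saline group (4 libraries) the mice received saline for 2 weeks, and in the TLQP21 group (4 libraries) the treatment was TLQP21, a VGF-derived peptide, for the same time. The sources used here give no dose, route, age or sex and do not say whether each library was a separate animal. P-values therefore measure how far these libraries differ among themselves, which need not be how far animals differ. The submitters' stated question is which transcriptional changes go with the smaller tumours they saw under TLQP21. The labels name the cell type as pancreatic cancer cells, but whole tumours were harvested. All 8 PDAC epithelial markers had reads in every library (summed level 6359.8 to 6782 CPM in Saline and 6718 to 7051 in TLQP21), and so did all markers of neutrophils, macrophages, T cells, fibroblasts and endothelium. C57BL/6 hosts keep their immune cells. In such bulk RNA fewer cells of a type and less RNA per cell cannot be told apart.

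Most interleukins work within families that share receptor chains. The IL-1 family signals through MyD88 and NF-kappaB and is restrained by a natural antagonist, a decoy receptor and a binding protein. Cytokines of the common gamma chain (IL-2, IL-4, IL-7, IL-9, IL-15 and IL-21) signal through JAK1, JAK3 and STAT5 or STAT6 and sustain lymphocytes, while the IL-12 and IL-10 families direct or dampen T cell and myeloid responses. In pancreatic cancer, IL-1 from tumour and myeloid cells is known to drive inflammatory fibroblasts.

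Library totals were 28358465 to 28963457 counts in Saline and 29027480 to 33536087 in TLQP21. Libraries 1 and 2 of each group held 9960 to 10625 reads of Xist and libraries 3 and 4 held 0 to 14, a split the labels do not mention, called here the Xist and the Y-linked kind. Saline 2 carried hepatocyte transcripts (summed marker level 4041 CPM, 5.58 to 9.27 in the other libraries), and Saline 4 had the most acinar and neutrophil transcripts. Levels are CPM, counts scaled to a common library size with the trimmed-mean (TMM) method, and means carry the SD over 4 libraries. A log2 fold change below 0 means a lower level in TLQP21 than in Saline, as estimated by edgeR's quasi-likelihood test over all 18238 genes tested.

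No interleukin gene passed the adjusted threshold of 0.05 in that test. The share of all genes called was 0%, and the smallest adjusted p over the 51 members was 0.9999. As a description, 39 of the 51 lay below 0, with a median log2 fold change of -0.22, against 49.4% of all tested genes and a median of 0.0020. At an unadjusted p under 0.05, 10 members (19.6%) lay lower and 0 higher, where 2.26% of all genes lay lower and 0.795% higher (3.06% in either direction). The lower members were Il1a, Il1r2 and Il18bp of the IL-1 family, the gamma chain receptors Il2ra, Il2rg, Il15ra and Il7r, the IL-10 receptor Il10ra, and Il27 and Il12rb1 of the IL-12 family. DESeq2 and limma likewise called 0 members. At an unadjusted p under 0.05, DESeq2 had 11 of 73 members, all lower, against 2.28% of 32646 genes. These included all 10 named above. With limma there were 14 of 51 (12 lower, 2 higher), against 10.6% of 18238 genes. The 12 lower included 8 of the 10. None of the 51 passed the filter on low counts through 1 group alone.

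**Figure D1:**
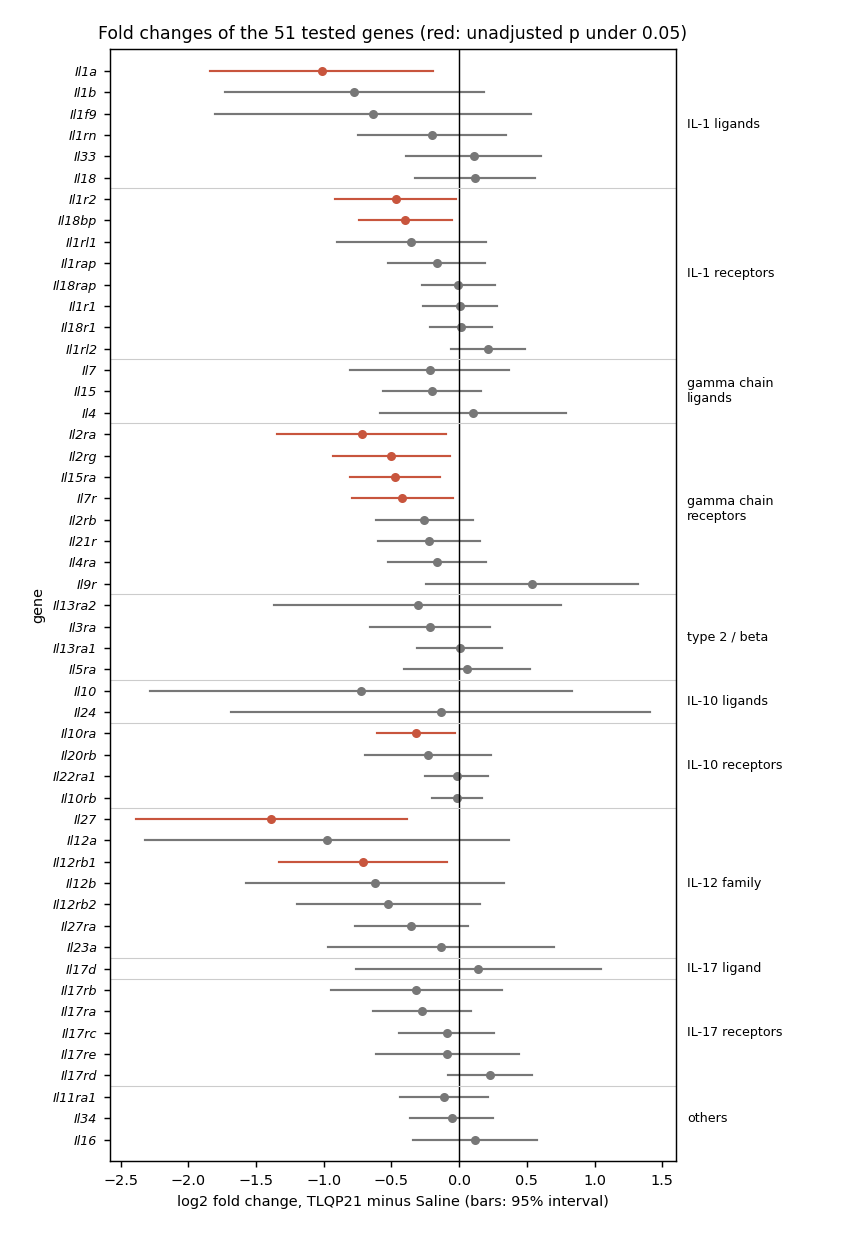
Log2 fold change of TLQP21 against Saline for each tested member, by role, with 95% intervals from edgeR. The 10 members in red, all below 0, have an unadjusted p under 0.05, and the estimates run from -1.39 (Il27) to 0.54 (Il9r).

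The count of 10 moved with single libraries left out. It was 6 without Saline 1, without Saline 2 or without Saline 4, 5 without TLQP21 2 or without TLQP21 4, and 3 without TLQP21 3. Without Saline 3 it was 7, and without TLQP21 1, the TLQP21 library closest to the Saline range in many of these genes, it was 14. The share of all genes lower at this p was 4.07% without TLQP21 1 and 1.47% without TLQP21 3. Each of the 10 stayed below 0 in all 8 fits that left out a library. Only Il15ra and Il27 kept an unadjusted p under 0.05 in all 8 of those fits, with p up to 0.0339 and 0.0319. Intervals lay within 2-fold in both directions for 37 of the 51 members, and for 79.6% of all genes.

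Levels were compared between genes only per kilobase of gene model. Averaged over all 8 libraries, the most abundant member was Il1b, the secreted pyrogen of activated myeloid cells, at 59.4 CPM per kilobase, followed by Il33, a nuclear alarmin of epithelium and stroma, at 58.1. Il4ra, the receptor chain shared by IL-4 and IL-13, was at 45.3, Il13ra1, its partner chain, at 27.4, and Il17rc, a subunit of the IL-17 receptor, at 23.3. Il1rn, the IL-1 receptor antagonist, was at 20.9 and Il1r1, the signalling receptor, at 15.98 CPM per kilobase. The order of the leading pair differed by group: Il1b stood at 74.98 and Il33 at 55.9 in Saline, and at 43.8 and 60.2 in TLQP21. The Saline mean of Il1b rested largely on Saline 3 and Saline 4 (145 and 274 CPM, against 66.2 and 86.04 in Saline 1 and Saline 2). The order of the pair was not tested, and the ranges of both genes overlapped between groups. At the lower end of the tested members were Il12a (0.170), Il17rb (0.191) and Il9r (0.197 CPM per kilobase).

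**Figure D2:**
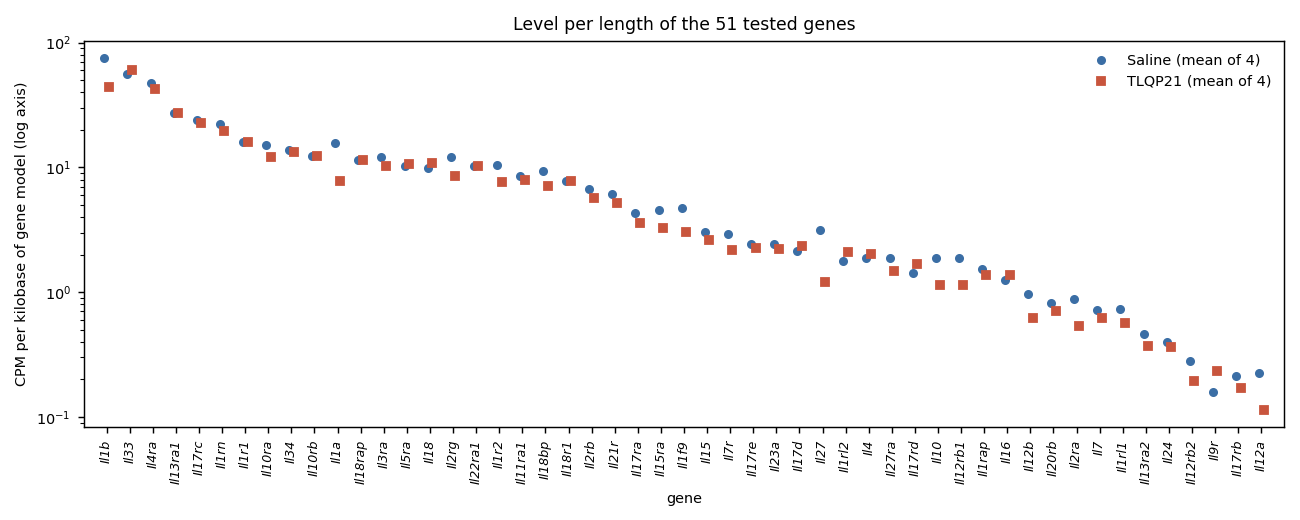
Mean CPM per kilobase of gene model (log axis) of the 51 tested members in Saline and TLQP21, in order of their mean over all libraries. Il1b leads at 59.4 and Il12a is lowest at 0.170.

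On GRCm38, the deposited coordinates place Il1a (ENSMUSG00000027399) on chromosome 2 from 129299610 to 129309972 and Il1b (ENSMUSG00000027398) on chromosome 2 from 129364570 to 129371139, side by side on the same strand, with Il2ra (ENSMUSG00000026770) on chromosome 2 from 11642807 to 11693193. The other members with an unadjusted p under 0.05 are Il15ra (ENSMUSG00000023206) on chromosome 2 from 11705290 to 11734317, Il27 (ENSMUSG00000044701) on chromosome 7 from 126589010 to 126594941, Il18bp (ENSMUSG00000070427) on chromosome 7 from 102014885 to 102018690 and Il2rg (ENSMUSG00000031304) on chromosome X from 101264378 to 101268255. They also include Il12rb1 (ENSMUSG00000000791) on chromosome 8 from 70808449 to 70821424, Il7r (ENSMUSG00000003882) on chromosome 15 from 9505788 to 9530176, Il10ra (ENSMUSG00000032089) on chromosome 9 from 45253837 to 45269149 and Il1r2 (ENSMUSG00000026073) on chromosome 1 from 40074079 to 40125231. The table lists each of them with the protein-coding biotype.

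The promoters of Il1a and Il1b, neighbouring genes that both peaked in Saline 4, and of Il2ra, the gamma chain receptor with the lowest fold change, are shown as the 250 bases before the start site (RefSeq, GRCm38.p6, strand of the gene). None of the 3 windows overlaps an annotated exon. Capitals mark a TATA box (TATAAA) in Il1a and Il1b and the kappaB motif (GGG and CC around 5 bases of any kind, overlapping matches joined) in Il2ra.
Il1a, chr2:129309973-129310222, minus strand: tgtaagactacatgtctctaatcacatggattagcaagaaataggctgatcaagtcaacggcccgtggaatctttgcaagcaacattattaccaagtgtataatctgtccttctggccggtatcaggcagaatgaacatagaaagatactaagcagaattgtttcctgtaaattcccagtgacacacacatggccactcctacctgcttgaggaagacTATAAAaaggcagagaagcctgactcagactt
Il1b, chr2:129371140-129371389, minus strand: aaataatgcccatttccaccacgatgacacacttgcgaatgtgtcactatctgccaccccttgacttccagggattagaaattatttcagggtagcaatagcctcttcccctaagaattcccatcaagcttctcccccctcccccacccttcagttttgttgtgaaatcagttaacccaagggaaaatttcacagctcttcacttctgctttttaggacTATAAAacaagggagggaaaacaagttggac
Il2ra, chr2:11642542-11642791, plus strand: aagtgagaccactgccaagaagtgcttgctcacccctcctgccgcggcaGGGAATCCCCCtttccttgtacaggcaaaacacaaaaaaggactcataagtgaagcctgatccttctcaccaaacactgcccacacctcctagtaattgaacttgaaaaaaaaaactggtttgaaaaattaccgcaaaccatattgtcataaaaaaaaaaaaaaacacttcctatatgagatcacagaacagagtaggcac
The TATA box of Il1a begins 32 bases and that of Il1b 31 bases before the start. Motifs were searched on both strands. TATAAA occurred in 12.4% of 32851 promoter windows of this length, and the kappaB motif in 45.8%, so that its presence in Il2ra is common. The interferon response core (a pair of GAAA runs 2 bases apart, in 2.98% of windows) and the STAT motif TTCNNNGAA (7.02%) were found in none of these 3. RefSeq windows were at hand for 38 of the 51 tested members. Of the 10 lower members, Il10ra, Il12rb1 and Il27 had no entry. A match is a description of letters and not evidence of a bound factor.

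Among IL-1 family ligands, 4 of 6 tested genes lay below 0, and 1, Il1a, had an unadjusted p under 0.05. Il1a encodes an alarmin that acts when cells are damaged. Its level was 21.03, 22.9, 22.9 and 57.3 CPM in Saline 1 to 4 and 24.3, 13.6, 10.7 and 12.7 in TLQP21 1 to 4. Saline 4 stood far above every other library, and 3 of the 4 TLQP21 libraries lay below all Saline libraries. Means were 31.02 ± 17.5 and 15.3 ± 6.09 CPM (log2 fold change -1.02, SE 0.37, 95% interval -1.84 to -0.20, unadjusted p = 0.0203), and the fold change was -0.54 without Saline 4. Il1b was at 66.2, 86.04, 145 and 274 CPM in Saline 1 to 4 and 84.2, 51.9, 70.4 and 128 in TLQP21 1 to 4. For Il1b too Saline 4 was highest, TLQP21 4 lay above Saline 1 and Saline 2, and the groups overlapped. The fold change of Il1b was -0.77 (SE 0.43, 95% interval -1.73 to 0.18), and -0.25 without Saline 4. Reads from 222 exon bases of Il1a that overlap Gm14023 on the opposite strand are uncertain, as are those from 25 bases of Il1b that overlap the antisense gene Il1bos.

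Neutrophil markers, like Il1a and Il1b, were highest in Saline 4. Their summed level was 389.8, 404, 319.8 and 1073 CPM in Saline 1 to 4 and 383, 208, 269 and 203 in TLQP21 1 to 4. In other libraries the order differed between Il1b and the neutrophil sum. Saline 3 had the lowest neutrophil sum of the Saline libraries and TLQP21 4 the lowest of all 8. Their Il1b levels came next after that of Saline 4. Single markers differed from the sum: in Saline 3, Ngp (51.9 CPM), Camp (10.7) and Ly6g (1.03) also came next after Saline 4. By contrast S100a8, S100a9, Cxcr2, Csf3r, Retnlg and Mmp9 were each lowest in Saline 3 among the Saline libraries. All 9 neutrophil markers were found, none at 0, and all 9 had fold changes below 0, with a median of -1.21. In edgeR's test 6 of the 9 lay lower at an unadjusted p under 0.05, against 2.26% of all genes, and 0 passed the adjusted threshold. The sums of fibroblast markers (11187 CPM) and acinar markers (33709.9 CPM) were also highest in Saline 4. Most of that fibroblast sum came from Col3a1 (4488 CPM), Col1a1 (3466) and Col1a2 (2726), which with Lum were highest there. By contrast Pdgfra, Pdgfrb and Dcn were highest in TLQP21 1 (94.8, 81.8 and 271 CPM, against 72.0, 69.7 and 253 in Saline 4). The part of these cells in the levels of Il1a and Il1b was not tested.

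Il1f9, which encodes the epithelial cytokine IL-36 gamma, had a fold change of -0.64 with an interval of -1.80 to 0.53. Il1rn, the antagonist that occupies the IL-1 receptor without signalling, was at 135, 116, 75.8 and 168 CPM in Saline 1 to 4 and 142, 111, 76.05 and 101 in TLQP21 1 to 4. Its groups overlapped, with Saline 4 highest and Saline 3 lowest, and the fold change was -0.20 (interval -0.75 to 0.35). It was -0.020 without Saline 4 and -0.064 without TLQP21 3, and -0.37 without Saline 3 and -0.36 without TLQP21 1. Il33 was at 166, 125, 123 and 231 CPM in Saline 1 to 4 and 156, 158, 145 and 235 in TLQP21 1 to 4. Saline 4 and TLQP21 4 were both high and close together, and the fold change of 0.11 turned to -0.079 without TLQP21 4. Il18, released by the inflammasome like IL-1 beta, was at 9.26, 10.5, 12.7 and 8.66 CPM in Saline 1 to 4 and 10.1, 9.41, 9.73 and 15.3 in TLQP21 1 to 4 (0.11, interval -0.33 to 0.56). Only TLQP21 4 stood apart among the TLQP21 libraries, and the fold change was -0.080 without it.

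Of 8 tested IL-1 family receptors and binding proteins, 5 lay below 0, and those with an unadjusted p under 0.05 were the inhibitors Il1r2 and Il18bp. Il1r2 encodes a decoy receptor that binds IL-1 and does not signal. Its level was 21.1, 16.5, 17.2 and 25.5 CPM in Saline 1 to 4 and 18.8, 15.7, 11.3 and 12.04 in TLQP21 1 to 4. Saline 4 and Saline 1 were highest and TLQP21 3 and TLQP21 4 lowest, with overlap between the groups. Means were 20.1 ± 4.14 and 14.5 ± 3.49 CPM (log2 fold change -0.47, SE 0.20, 95% interval -0.92 to -0.023, unadjusted p = 0.0412), and the fold change was -0.34 without Saline 4. Neutrophils are a known source of the decoy, and their markers, given above, were likewise highest in Saline 4; their part was not tested.

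Il18bp, the soluble inhibitor of IL-18, was at 29.4, 34.2, 28.3 and 21.5 CPM in Saline 1 to 4 and 24.4, 22.7, 18.3 and 20.7 in TLQP21 1 to 4. Here Saline 4 was the lowest Saline library and lay within the TLQP21 range, while the other 3 Saline libraries lay above all TLQP21 libraries. Means were 28.4 ± 5.26 and 21.5 ± 2.63 CPM (log2 fold change -0.40, SE 0.15, 95% interval -0.74 to -0.055, unadjusted p = 0.0272). Without Saline 2, the highest library and the one with hepatocyte transcripts, the fold change was -0.29, and it was -0.51 without Saline 4. The part of hepatocytes in this level was not tested. Il18bp shares 80 exon bases with Numa1 on the opposite strand, whose fold change was -0.020, and without a stated strand setting reads there cannot be assigned.

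The signalling receptor Il1r1 was at 109, 83.9, 101 and 113 CPM in Saline 1 to 4 and 121, 92.3, 92.2 and 102 in TLQP21 1 to 4. Its groups overlapped (0.0047, SE 0.12, interval -0.27 to 0.28). The accessory chain Il1rap was at -0.17, and the IL-18 receptor chains Il18r1 and Il18rap were at 0.013 and -0.0052, with intervals of -0.21 to 0.24 and -0.28 to 0.27. Il1rl1, the receptor of IL-33 on mast cells, innate lymphoid cells and regulatory T cells, was at 4.49, 3.22, 6.28 and 6.09 CPM in Saline 1 to 4 and 4.48, 3.02, 4.12 and 4.11 in TLQP21 1 to 4. Saline 3 and Saline 4 stood above the remaining libraries, and the fold change was -0.35 (interval -0.90 to 0.20), and -0.23 without Saline 3. Il1rl2, the receptor of the IL-36 cytokines, was at 12.6, 10.7, 13.5 and 12.1 CPM in Saline 1 to 4 and 15.7, 13.6, 13.6 and 13.9 in TLQP21 1 to 4. It was the single tested member whose groups did not overlap (1 of 51, against 1.66% of all genes), with all TLQP21 libraries above all Saline libraries by a narrow margin (0.22, unadjusted p = 0.109). Under 2 other scalings, RLE and upper-quartile, its groups overlapped, as they did in the fits without a filter and with DESeq2. Without TLQP21 1, 12 tested members did not overlap, against 6.53% of all genes. Without any other single library 1 to 4 did not, against 2.62% to 4.96% of all genes, which is near that background.

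Of 8 common gamma chain receptors, all tested, 7 lay below 0, with a median of -0.34, and 4 had an unadjusted p under 0.05. Il15ra presents IL-15 to neighbouring natural killer and CD8 T cells. It was at 23.1, 21.8, 20.04 and 15.9 CPM in Saline 1 to 4 and 17.3, 14.2, 13.02 and 13.6 in TLQP21 1 to 4. The 3 libraries Saline 1 to 3 lay above all TLQP21 libraries, and Saline 4 lay below TLQP21 1. Means were 20.2 ± 3.14 and 14.5 ± 1.92 CPM, the smallest unadjusted p of all members (log2 fold change -0.48, SE 0.15, 95% interval -0.81 to -0.14, unadjusted p = 0.00968).

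Il2rg encodes the gamma chain itself, used by all 6 cytokines of the family. Its level was 32.9, 31.3, 25.9 and 24.96 CPM in Saline 1 to 4 and 28.7, 20.5, 16.2 and 16.00 in TLQP21 1 to 4. TLQP21 1 lay among the Saline libraries and the other 3 TLQP21 libraries lay below all of them. Means were 28.8 ± 3.95 and 20.3 ± 5.93 CPM (log2 fold change -0.50, SE 0.19, 95% interval -0.94 to -0.065, unadjusted p = 0.0284), and without TLQP21 1 the fold change was -0.71. Il2rg shares 728 exon bases with Gm20489 on its own strand, and reads there are uncertain. Il2ra, the high-affinity IL-2 receptor chain of regulatory and activated T cells, was at 4.59, 5.32, 5.29 and 5.03 CPM in Saline 1 to 4 and 4.86, 3.02, 1.83 and 2.59 in TLQP21 1 to 4. The same pattern held, with the 4 Saline libraries close together, TLQP21 1 among them and TLQP21 2 to 4 below. Means were 5.06 ± 0.335 and 3.08 ± 1.29 CPM (log2 fold change -0.72, SE 0.28, 95% interval -1.34 to -0.094, unadjusted p = 0.0283), and the fold change was -1.02 without TLQP21 1.

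Il7r, the IL-7 receptor chain of naive and memory T cells, was at 14.6, 10.1, 13.9 and 16.2 CPM in Saline 1 to 4 and 11.5, 9.73, 9.0 and 10.7 in TLQP21 1 to 4. Saline 2 lay within the TLQP21 range and the other Saline libraries above it (log2 fold change -0.42, SE 0.17, 95% interval -0.79 to -0.045, unadjusted p = 0.0317). Il2rb, shared by the IL-2 and IL-15 receptors, was at 28.7, 30.5, 33.4 and 23.4 CPM in Saline 1 to 4 and 30.6, 25.2, 20.1 and 21.2 in TLQP21 1 to 4. Its groups overlapped through Saline 4 and TLQP21 1 (-0.26, interval -0.61 to 0.10, -0.39 without TLQP21 1). Il4ra, the most abundant receptor per length, was at 269, 297, 224 and 359 CPM in Saline 1 to 4 and 309, 266, 241 and 210.2 in TLQP21 1 to 4. Saline 4 was highest and TLQP21 4 lowest, and the fold change of -0.16 was -0.042 without Saline 4. Il21r lay at -0.22 and Il9r, at a mean of 0.790 and 1.15 CPM, at 0.54 (SE 0.35).

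T cell markers did not lie lower as a list beside these receptors. All 9 were found and had reads in every library, 4 of 9 were below 0, and their summed level was 61.3 to 91.8 CPM in Saline and 67.6 to 97.3 in TLQP21, with TLQP21 1 highest. Those below 0 were Cd4 (-0.67), Cd247 (-0.53), Lck (-0.20) and Cd3g (-0.12). Those above 0 were Cd8a (0.23), Cd8b1 (0.15), the T cell receptor constant gene Trac (0.12), Cd3e (0.052) and Cd3d (0.028). Macrophage markers (7 of 7 with reads in every library, 6 below 0) summed to 1337 to 1479 CPM in Saline and 1061 to 1626 in TLQP21, and TLQP21 1 was again highest and TLQP21 4 lowest. Among them Adgre1, which encodes the macrophage antigen F4/80, was at 127, 122, 136 and 128 CPM in Saline 1 to 4 and 107, 81.6, 78.4 and 102 in TLQP21 1 to 4. Its groups did not overlap, with all TLQP21 libraries lower (-0.47, SE 0.11, unadjusted p = 0.00195), and it was named after its values were seen. Natural killer markers (5 of 5) summed to 10.7 to 20.03 CPM in Saline and 9.80 to 19.6 in TLQP21. B cell markers (5 of 5, all below 0) summed to 23.8 to 44.3 CPM in Saline and 10.4 to 35.9 in TLQP21. The part of these cells in the receptor levels was not tested.

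Of 6 gamma chain ligands, 3 were tested. Il15, which sustains natural killer and memory CD8 T cells, was at 5.85, 6.44, 7.48 and 7.49 CPM in Saline 1 to 4 and 6.77, 5.87, 5.81 and 5.25 in TLQP21 1 to 4. The groups overlapped (-0.20, interval -0.56 to 0.16). Il7, made by stroma, lay at -0.22 and Il4, the type 2 cytokine, at 0.10, from means of 2.29 and 2.46 CPM. Il2, Il9 and Il21 did not pass the filter, with 27, 0 and 72 reads over all 8 libraries.

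Genes of type 2 responses and of the common beta chain showed no shared direction, with 2 of 4 tested below 0. Il13ra1 was at 112, 102, 97.1 and 95.2 CPM in Saline 1 to 4 and 99.9, 95.1, 80.4 and 132 in TLQP21 1 to 4. TLQP21 3 was lowest and TLQP21 4 highest of all 8 libraries, so the TLQP21 group spanned the Saline group (102 ± 7.63 and 102 ± 21.9 CPM, 0.0027). Il3ra, the IL-3 receptor of basophils and plasmacytoid dendritic cells, was at 35.4, 32.5, 33.4 and 41.5 CPM in Saline 1 to 4 and 35.6, 33.6, 35.2 and 18.3 in TLQP21 1 to 4. TLQP21 4 lay apart below the others, and the fold change of -0.22 was -0.039 without it. Il5ra, the eosinophil receptor of IL-5, lay at 0.058 and the IL-13 decoy receptor Il13ra2 at -0.31. Mast cell and basophil markers (8 of 8 with reads in every library) summed to 19.3 to 32.4 CPM in Saline and 18.2 to 26.4 in TLQP21. The ligands Il3, Il5, Il13 and Il31 were not tested, with 3, 13, 24 and 0 reads in all.

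In the IL-10 family the receptor Il10ra lay lower and its ligand varied widely. Il10ra, the ligand-binding chain on leukocytes, was at 49.6, 54.3, 56.1 and 53.03 CPM in Saline 1 to 4 and 51.3, 47.2, 37.6 and 34.6 in TLQP21 1 to 4. TLQP21 3 and TLQP21 4 lay well below all Saline libraries, while TLQP21 1 lay among them (53.3 ± 2.78 and 42.7 ± 7.87 CPM, log2 fold change -0.32, SE 0.13, 95% interval -0.61 to -0.030, unadjusted p = 0.0336). Its partner chain Il10rb, which is broadly expressed, was at -0.014 with the narrow interval of -0.20 to 0.17. Il10, the anti-inflammatory cytokine, was at 0.953, 0.805, 4.60 and 3.48 CPM in Saline 1 to 4 and 1.81, 0.345, 0.897 and 2.90 in TLQP21 1 to 4. Saline 3, Saline 4 and TLQP21 4 were the highest libraries, and the fold change of -0.72 had an interval of -2.28 to 0.83. It was -0.22 without Saline 3, -0.39 without TLQP21 2 and -1.28 without TLQP21 4. Il22ra1, the epithelial receptor of IL-22, was at 25.02, 25.00, 25.6 and 30.4 CPM in Saline 1 to 4 and 24.5, 28.2, 26.2 and 25.8 in TLQP21 1 to 4. Saline 4 was highest, the other 7 libraries lay from 24.5 to 28.2, and the fold change was -0.018 (interval -0.25 to 0.21). Il24 lay at -0.14 and Il20rb at -0.23.

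All 7 tested genes of the IL-12 family lay below 0, with a median of -0.62, and Il27 and Il12rb1 had an unadjusted p under 0.05. Il27, the subunit that pairs with EBI3 to form IL-27, a cytokine of activated myeloid cells, was at 4.02, 4.17, 2.06 and 2.65 CPM in Saline 1 to 4 and 2.09, 1.18, 1.30 and 0.371 in TLQP21 1 to 4. All TLQP21 libraries except TLQP21 1 lay below all Saline libraries, and TLQP21 1 lay just above Saline 3. Means were 3.22 ± 1.03 and 1.23 ± 0.702 CPM, the most negative fold change of all members (log2 fold change -1.39, SE 0.45, 95% interval -2.39 to -0.39, unadjusted p = 0.0117). The gene had 367 reads over the Saline and 153 over the TLQP21 libraries, and it shares 103 exon bases with Apobr on the opposite strand, whose fold change was -0.17.

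Il12rb1, the chain shared by the IL-12 and IL-23 receptors, was at 7.90, 10.4, 6.11 and 6.24 CPM in Saline 1 to 4 and 6.77, 4.89, 4.12 and 2.93 in TLQP21 1 to 4. TLQP21 1 lay within the Saline range and the other TLQP21 libraries below it (7.65 ± 1.98 and 4.68 ± 1.61 CPM, log2 fold change -0.71, SE 0.28, 95% interval -1.33 to -0.089, unadjusted p = 0.0290). Il12b, the p40 subunit of both cytokines, was at 1.09, 1.12, 2.99 and 2.35 CPM in Saline 1 to 4 and 0.924, 1.12, 0.764 and 2.07 in TLQP21 1 to 4. Saline 3, Saline 4 and TLQP21 4 stood above the rest, and the fold change was -0.62 (interval -1.58 to 0.33), -0.31 without Saline 3 and -1.003 without TLQP21 4. Il23a, the p19 subunit of IL-23, was at 5.48, 6.51, 2.92 and 6.96 CPM in Saline 1 to 4 and 8.04, 5.73, 3.32 and 2.81 in TLQP21 1 to 4. Its groups overlapped throughout (-0.14), and the fold change was 0.061 without TLQP21 4. Il27ra lay at -0.35, Il12rb2 at -0.52 and Il12a at -0.97 (interval -2.32 to 0.37). Il12a had 67 reads in all, the fewest of the tested members. It was over the count cutoff of the filter in 3 Saline libraries and 1 TLQP21 library. Il12rb2 shares 1519 exon bases with the abundant gene Serbp1 on the opposite strand, so its 214 reads are uncertain. Dendritic cell markers (6 of 6 with reads in every library) summed to 28.6 to 46.5 CPM in Saline and 31.5 to 36.2 in TLQP21, and 3 of 6 were below 0.

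**Figure D3:**
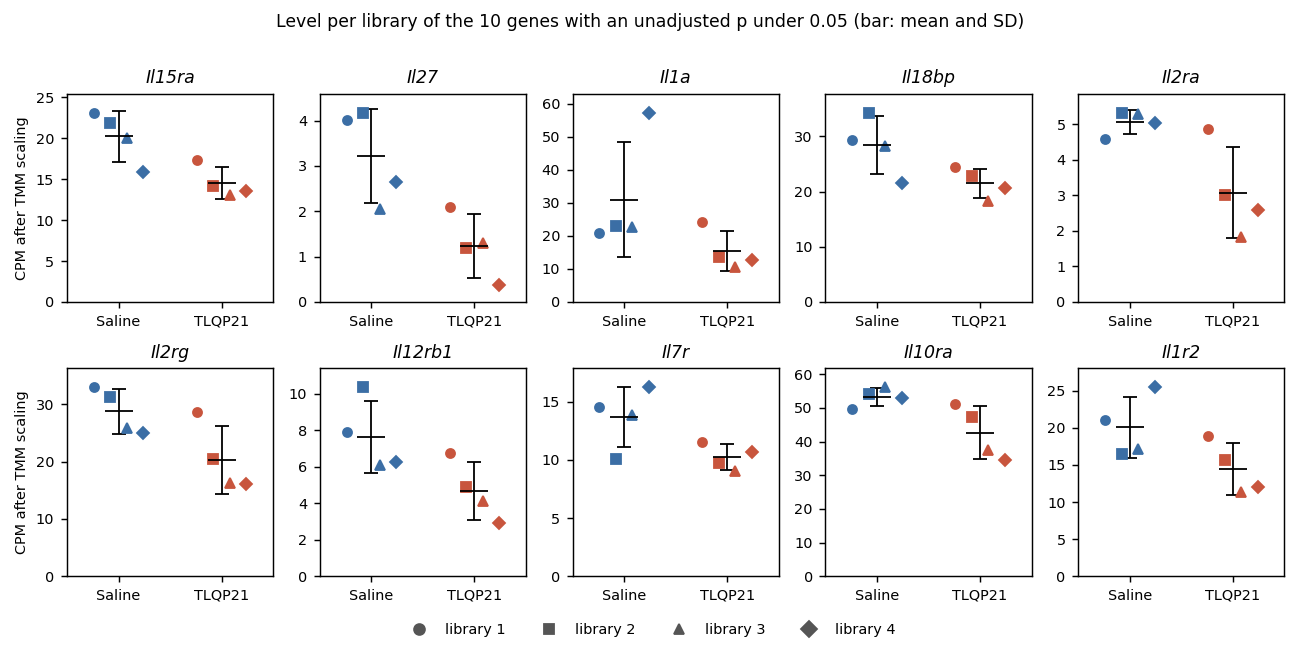
CPM in each library for the 10 members with an unadjusted p under 0.05, in order of p, with group mean and SD. The TLQP21 1 circle is the highest TLQP21 value in all 10 panels, and the groups overlap in each.

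All 5 IL-17 receptors were tested and 4 lay below 0, none with an unadjusted p under 0.05. The shared receptor Il17ra was at 33.6, 37.4, 33.4 and 45.2 CPM in Saline 1 to 4 and 39.9, 31.7, 26.1 and 25.8 in TLQP21 1 to 4. TLQP21 2, 3 and 4 lay below all Saline libraries and TLQP21 1 among them (-0.28, interval -0.64 to 0.086, -0.18 without Saline 4 and -0.42 without TLQP21 1). Il17rc, which pairs with it to bind IL-17A and IL-17F, was at 55.4, 57.01, 78.5 and 66.3 CPM in Saline 1 to 4 and 62.7, 61.7, 71.8 and 44.9 in TLQP21 1 to 4. Saline 3 was highest and TLQP21 4 lowest (-0.093, interval -0.44 to 0.26). Il17re, Il17rb and Il17rd lay at -0.088, -0.32 and 0.23. Of the ligands Il17d alone was tested, at 2.76, 3.08, 2.30 and 2.72 CPM in Saline 1 to 4 and 3.93, 3.37, 3.85 and 0.834 in TLQP21 1 to 4. TLQP21 4 was far below the rest, and the fold change of 0.14 was 0.45 without it and -0.017 without TLQP21 1. Il17a, the neutrophil-recruiting cytokine of Th17 and gamma-delta T cells, had 0, 1, 3 and 3 reads in Saline 1 to 4 and 0, 0, 1 and 2 in TLQP21 1 to 4. Such counts are at the floor of 3 reads, and no fold is given. Il17f had 12 reads in all, Il17c, an epithelial cytokine, 65, Il25 1 and Il17b 0.

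Of the remaining members 3 were tested. Il34, an alternative ligand of the macrophage receptor CSF1R, was at 27.8, 30.7, 27.4 and 22.1 CPM in Saline 1 to 4 and 25.7, 26.9, 29.9 and 21.4 in TLQP21 1 to 4. Its groups overlapped, with TLQP21 4 lowest (-0.056, interval -0.36 to 0.25). Il11ra1, the IL-11 receptor, was at 36.4, 31.3, 35.4 and 50.3 CPM in Saline 1 to 4 and 39.03, 35.8, 34.4 and 32.7 in TLQP21 1 to 4. Saline 4 was highest, and the fold change of -0.11 was 0.040 without it. Il16, a chemoattractant for CD4 cells, lay at 0.12, and it shares 1202 exon bases with Stard5 on the opposite strand.

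Of the 29 members that were not tested, 7 had no read, 8 had 1 to 10 reads over all libraries and 14 had 12 to 72. Those without a read were Il1f5, Il1f8, Il1rapl2, Il9, Il17b, Il31 and 1 of the Il11ra2 rows. A count of 0 allows up to 3 reads per library, which covers counting error only. With 1 to 10 reads were also Il1f10 (1), Il22 (3), a second Il11ra2 row (3), Il20 (5) and Il19 (10), and with more the receptors Il22ra2 (22), Il20ra (45) and Il31ra (53), the amino acid oxidase gene Il4i1 (31) and the remaining Il11ra2 row (23). The Il11ra2 rows are near-identical copies, so their reads are uncertain. Il4i1 shares 3423 exon bases with Tbc1d17 and 82 with Atf5 on the opposite strand, and 97 with Nup62 on its own. Its 31 reads are therefore uncertain too. The IL-36 alpha gene Il1f6 had 5, 5, 4 and 6 reads in Saline 1 to 4 and 1, 3, 0 and 0 in TLQP21 1 to 4, and the IL-23 receptor Il23r had 11, 8, 0 and 13 reads in Saline 1 to 4 and 1, 7, 4 and 0 in TLQP21 1 to 4. The Il1f6 groups did not overlap, all Saline libraries being higher, and those of Il23r overlapped. Several libraries of both genes were at or under the floor of 3 reads, and no test was made.

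Signalling genes of the same pathways were examined beside the receptors. Of 43 listed genes (adaptors, kinases, STATs, feedback inhibitors, the inflammasome, partner receptors and lineage factors), all 43 were tested and 0 passed the adjusted threshold. DESeq2 and limma also called 0. In the edgeR test 35 lay below 0 and 8 above, with a median of -0.17, and 6 (14.0%, against 2.26% of all genes) had an unadjusted p under 0.05, all lower. Nlrp3, the sensor of the inflammasome that matures IL-1 beta and IL-18, was at 26.1, 23.3, 27.1 and 65.1 CPM in Saline 1 to 4 and 22.7, 15.3, 10.6 and 9.17 in TLQP21 1 to 4. Its groups did not overlap, with Saline 4 far above the rest (-1.29, SE 0.38). Socs3, a feedback inhibitor of JAK and STAT signalling, was at 182, 204, 249.6 and 330.4 CPM in Saline 1 to 4 and 175, 148, 177 and 126 in TLQP21 1 to 4. Its groups did not overlap either (-0.63, SE 0.19), and these 2 of 43 (4.65%, against 1.66% of all genes) were the listed genes without overlap.

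The other 4 were Casp4, an inflammatory caspase (-0.40), Irak2, a kinase of IL-1 receptor signalling (-0.29), Cish, a STAT5-induced inhibitor (-0.55), and Csf2rb, the common beta chain of the IL-3, IL-5 and GM-CSF receptors (-0.52). By contrast the kinases Jak1 (0.0038, interval -0.20 to 0.21), Irak4 (-0.0033, interval -0.20 to 0.19) and the adaptor Traf6 (0.016, interval -0.21 to 0.25) lay near 0. Ebi3, the partner of IL-27, was at 4.60 ± 0.608 and 3.01 ± 1.77 CPM (-0.61, interval -1.42 to 0.20), and the lineage factors Foxp3 and Tbx21 were at -0.32 and -0.38.

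Across the 51 tested members, Saline 4 held the highest value of 15 and Saline 3 of 10, while TLQP21 4 held the lowest value of 16 and TLQP21 3 of 12. Each gene's log2 CPM was set against its mean over the 8 libraries. The median of these deviations was 0.079, 0.055, 0.043 and 0.16 in Saline 1 to 4. It was 0.097, -0.081, -0.21 and -0.26 in TLQP21 1 to 4. TLQP21 1 thus lay among the Saline libraries, and the other 3 TLQP21 libraries lay below them. Over all tested genes the same medians ran from -0.0078 to 0.033.

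**Figure D4:**
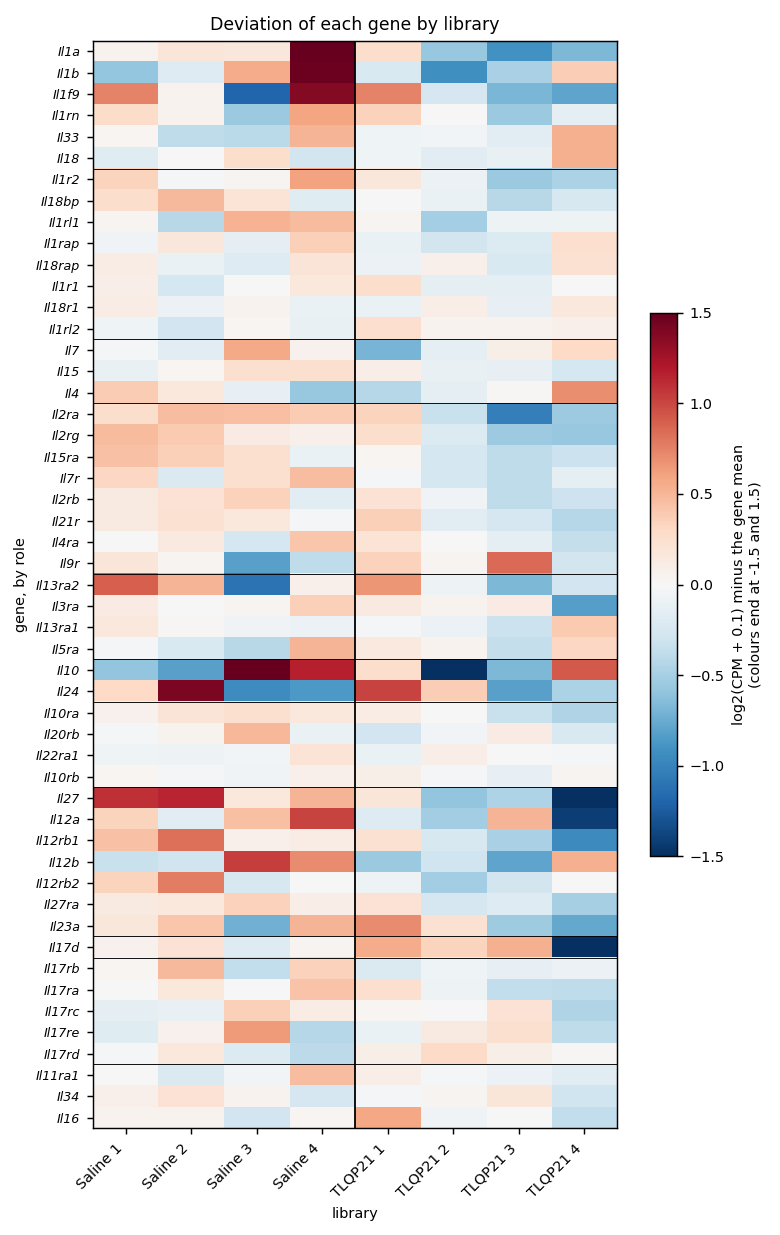
Deviation of log2(CPM + 0.1) from the gene mean for the 51 tested members (top to bottom, by role) in the 8 libraries (left to right). Saline 4 is highest for Il1a, Il1b and Il1f9, and 7 of the 8 gamma chain receptors lie below their mean in TLQP21 2, 3 and 4.

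Each treatment had 2 Xist and 2 Y-linked libraries, so the difference was also taken within each kind. Within the Xist libraries 31 of the 51 members lay below 0 with a median log2 ratio of -0.076, and within the Y-linked libraries 40 of 51 with a median of -0.35. Over all genes these medians were -0.0044 and 0.0050. Of the 10 lower members, Il15ra (-0.51 and -0.43), Il27 (-1.27 and -1.40), Il18bp (-0.43 and -0.35) and Il12rb1 (-0.64 and -0.79) had ratios of similar size in the Xist and the Y-linked libraries. For Il1a (-0.21 and -1.76), Il2ra (-0.32 and -1.19), Il10ra (-0.076 and -0.60), Il1r2 (-0.12 and -0.86), Il7r (-0.21 and -0.61) and Il2rg (-0.38 and -0.66) the ratio in the Y-linked libraries was the more negative.

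In an edgeR test of the interaction of treatment with this split, 0 of 51 members and 0% of all genes passed the adjusted threshold. At an unadjusted p under 0.05 there were 4 members (7.84%, against 4.80% of all genes): Il1a, Il10ra, Il17ra and Il4, the last named after its values were seen. Each kind holds 2 libraries per treatment, and TLQP21 1 belongs to the Xist kind and Saline 4 to the Y-linked kind.

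**Figure D5:**
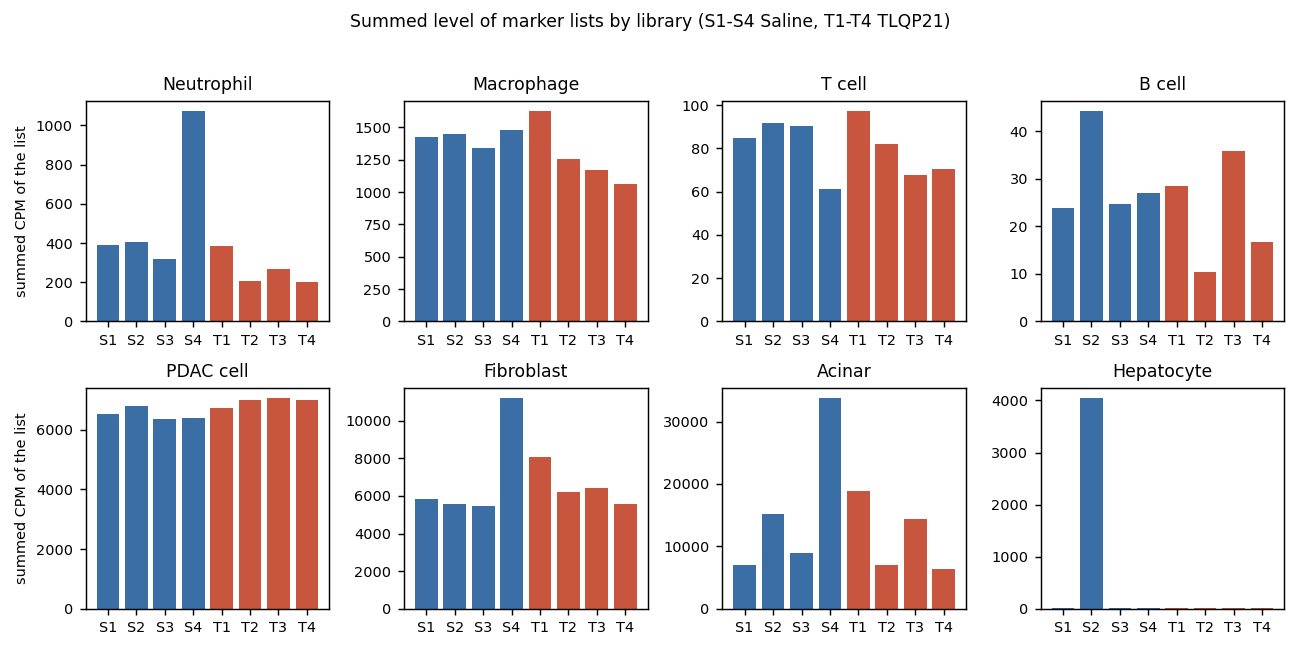
Summed CPM of marker lists in each library (S1 to S4 Saline, T1 to T4 TLQP21), one panel per cell type, axes from 0. Saline 4 has the highest neutrophil (1073), fibroblast and acinar sums, and TLQP21 1 the highest macrophage sum (1626). Most of the fibroblast sum is Col1a1, Col1a2 and Col3a1. Hepatocyte transcripts are high in Saline 2 alone.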

How the data were processed

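RNA-seq libraries of whole tumour tissue, 8 in all and 4 per group, were grouped by sample title. The authors deposited raw read counts for each gene. The tools named, per the submitters' processing notes, are the aligner HISAT2 (2.0.5), the counter featureCounts (1.5.0-p3) and DESeq2 (1.32.0), and the build is GRCm38 (mm10). The strand setting was not given in the sources used here. The deposited gene length gave levels per kilobase. All 80 members were found in GENCODE M21, 79 with identical coordinates.

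Genes were filtered by edgeR's default by group, scaled by TMM and tested with edgeR 4.0.16 (R 4.3.3, quasi-likelihood, Benjamini-Hochberg over 18238 genes, threshold 0.05). The test was tested on simulated data. It recovered 12.5% of 1.5-fold, 54% of 2-fold, 77.6% of 3-fold and 93.9% of 4-fold changes at the adjusted threshold, with 3 false calls. A count of 0 called therefore leaves room for changes of 2-fold or less, and for some larger ones. Intervals lay within 2-fold for only 37 of the 51 members, and that of Il27 ran from -2.39 to -0.39. DESeq2 1.42.0, limma 3.58.1, other scalings and filters, protein-coding genes only, a replicate block, the Xist split (over 1000 reads) as covariate and each library left out were alternatives. Within-kind log2 ratios and deviations add 0.1 CPM. No library pair was identical (lowest chi-square per degree of freedom 21.1). The members, gene lists and tests were chosen with earlier results of these data known. Values in every library are given for members with an unadjusted p under 0.05, members without overlap, the 6 most abundant per kilobase, the smallest p per role and a fixed list.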

Additional observations from a re-analysis of the deposited data

Results flagged for a closer look

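In 6 of 62 groups of 4 libraries, 1 library of a named member lay far from the other 3 (its gap to the nearest was over 0.829 of the group's range); chance gives this in about 1 in 20. In Saline 4, Il1a was at 57.3 CPM against 21.03 to 22.9 in Saline 1 to 3, and Il22ra1 at 30.4 against 25.00 to 25.6. In TLQP21 4, Il33 was at 235 CPM and Il18 at 15.3, above the other TLQP21 libraries. In the same library Il3ra, at 18.3 CPM, lay below 33.6 to 35.6 in the others. Il1rl2 was at 15.7 CPM in TLQP21 1 against 13.6 to 13.9.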

How the results depend on the processing

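The count of 0 interleukin and 0 signalling genes called held in all 17 alternative fits; over all genes DESeq2 called 4 and limma 1, none of them a member. The medians stayed within the spread between libraries, at -0.30 to -0.18 for interleukin and -0.22 to -0.12 for signalling genes when single libraries were left out. The number of members lower at an unadjusted p under 0.05, whose alternatives were chosen after seeing the data, was 8 to 12 under other scalings, filters, tools and covariates (1.67% to 6.62% of all genes, the highest with limma, which gave the 12) and 3 to 14 when single libraries were left out (1.37% to 4.07%). Tested members without overlap numbered 0 with RLE and with upper-quartile scaling and 1 to 12 with a library left out (12 without TLQP21 1); without the filter and with DESeq2 the 1 member was Il1f6 in place of Il1rl2. Without the filter on low counts the interaction with the Xist split passed for 2 of 73 members, Il1a and Il1b, and for 447 of 32646 genes (1.37%); the cause was not tested. With the replicate block 0 genes and 0 members were called and 11 members were lower at an unadjusted p under 0.05. Deviations of same-numbered libraries correlated at -0.08 to 0.29, none best with its own number. Whether the numbers mark pairs of libraries was not tested.

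Of 527 values for the 31 named members, 500 kept their direction and 27, in 10 genes, turned, all from fold changes between -0.14 and 0.14. Under limma they were Il18 -0.052, Il1r1 -0.026, Il22ra1 0.088, Il17rc 0.068, Il11ra1 0.012 and Il13ra1 -0.15, and under the replicate block Il17d -0.020 and Il13ra1 -0.019. With single libraries left out the ranges were -0.080 to 0.23 for Il18, -0.079 to 0.33 for Il33, -0.089 to 0.056 for Il1r1, -0.055 to 0.049 for Il22ra1, -0.19 to 0.020 for Il17rc, -0.017 to 0.45 for Il17d, -0.20 to 0.040 for Il11ra1, -0.15 to 0.022 for Il34, -0.47 to 0.061 for Il23a and -0.15 to 0.10 for Il13ra1. Depth limits the 29 untested members, at most 72 reads each, and exon overlap also leaves the Il4i1 count uncertain.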

Other observations

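Il1bos, an antisense transcript that shares 25 exon bases with Il1b, had 168 reads over the Saline and 145 over the TLQP21 libraries, against 15890 and 10522 for Il1b. Il1rapl1, a synaptic relative of the IL-1 receptors, had 0, 0, 0 and 0 reads in Saline 1 to 4 and 0, 2, 0 and 12 in TLQP21 1 to 4.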
